A study of Homo sapiens with 3 samples.

Results

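Genes for ephrins, semaphorins and other guidance cues, together with their receptors, were followed across 3 RNA-seq libraries of T24 cells, a human bladder carcinoma line. Members were the protein-coding genes of the count table whose symbols belong to the Eph receptor, ephrin, semaphorin, plexin, ROBO, SLIT, netrin and UNC5 families, and they numbered 66 of the 58381 genes listed. They comprised 14 Eph receptors, 8 ephrins, 20 semaphorins, 9 plexins, 4 ROBO receptors, 3 SLIT ligands, 4 netrins and 4 UNC5 receptors. A mean of at least 20 counts over the 3 libraries was reached by 52 of them, and 36 had at least 100 counts in some library.

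Ctrl was the unirradiated control arm, RT was the control arm irradiated with 10 Gy of gamma rays, and RT + shHDAC6 was irradiated likewise after lentiviral transfer of an shRNA against HDAC6, a mainly cytoplasmic deacetylase of tubulin. The labels describe a pLKO.1 control vector and puromycin selection, while the study's results text calls the comparator parental cells; whether the selected cells were a pool or a clone, and how long after irradiation RNA was taken, was not given in the sources used here. With 1 library per condition, nothing below could be set against replicate spread, and no p-value is given. A knockdown without irradiation was not analysed here.

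Guidance cues were named for steering growing axons, and epithelial, vascular and tumour cells use the same molecules to attract or repel their neighbours and to remodel actin. Eph receptors are tyrosine kinases that bind ephrins on adjacent cells, with ephrin-A ligands held by a lipid anchor and ephrin-B ligands spanning the membrane, and both partners signal after contact. Semaphorins act through plexins, and the secreted class 3 semaphorins mostly also need neuropilins. SLIT proteins act through ROBO receptors, and netrins through DCC, neogenin and UNC5 receptors. EPHA2 is the Eph receptor most often found at high levels in epithelial tumours.

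The Ctrl library held 41811165 counts, RT held 35959265 and RT + shHDAC6 held 35424086, and the members took 0.259%, 0.329% and 0.325% of these. A count of 0 allows up to 3 counts, or 0.0662, 0.0894 and 0.0857 TMM-scaled CPM (counts relative to the library's total). HDAC6 itself had 3098, 2383 and 2170 counts, and was not called in any of the 3 comparisons by the rule given below. All 6 epithelial markers examined had over 100 counts in a library, but of 6 urothelial markers only GATA3 and PPARG did, and the uroplakin genes UPK1A, UPK1B, UPK2 and UPK3A had at most 18 counts in any library. In RNA from bulk cells, fewer cells of a kind and less RNA per cell cannot be told apart.

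Values for the 3 libraries are given below in the order Ctrl, RT, RT + shHDAC6 unless a sentence names another. Counts are as deposited and ratios are after scaling, so that SEMA3D, at 1440 counts in Ctrl and 1434 in RT, had a log2 ratio of 0.43. EPHA2 was the most abundant member per length in every library. Levels between genes were compared as RPKM, TMM-scaled reads per kilobase of exon relative to the library's total, with exon lengths from GENCODE release 44. EPHA2 had 98.6, 192.5 and 252.2 RPKM, which was 80.1%, 83.0% and 92.85% of the summed RPKM of all Eph receptors. Next in Ctrl came the transmembrane ligand EFNB2 at 29.0 RPKM, the transmembrane semaphorin SEMA4B at 27.8, the semaphorin receptor PLXNA1 at 25.8, the SLIT receptor ROBO1 at 22.5, PLXNB2 at 21.6 and the secreted semaphorin SEMA3C at 16.2. The order from SEMA4B to PLXNB2 rests on small steps, and no replicate spread was available to separate neighbours. At the other end, 14 members stayed under a mean of 20 counts and had at most 28 counts in any library, among them the netrin NTN1, the Eph receptors EPHA5, EPHA6, EPHA7, EPHA8, EPHA10 and EPHB1, and the receptors UNC5A, UNC5C and UNC5D. EFNA2 and EPHA8 were at 0 counts in RT.

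**Figure D1:**
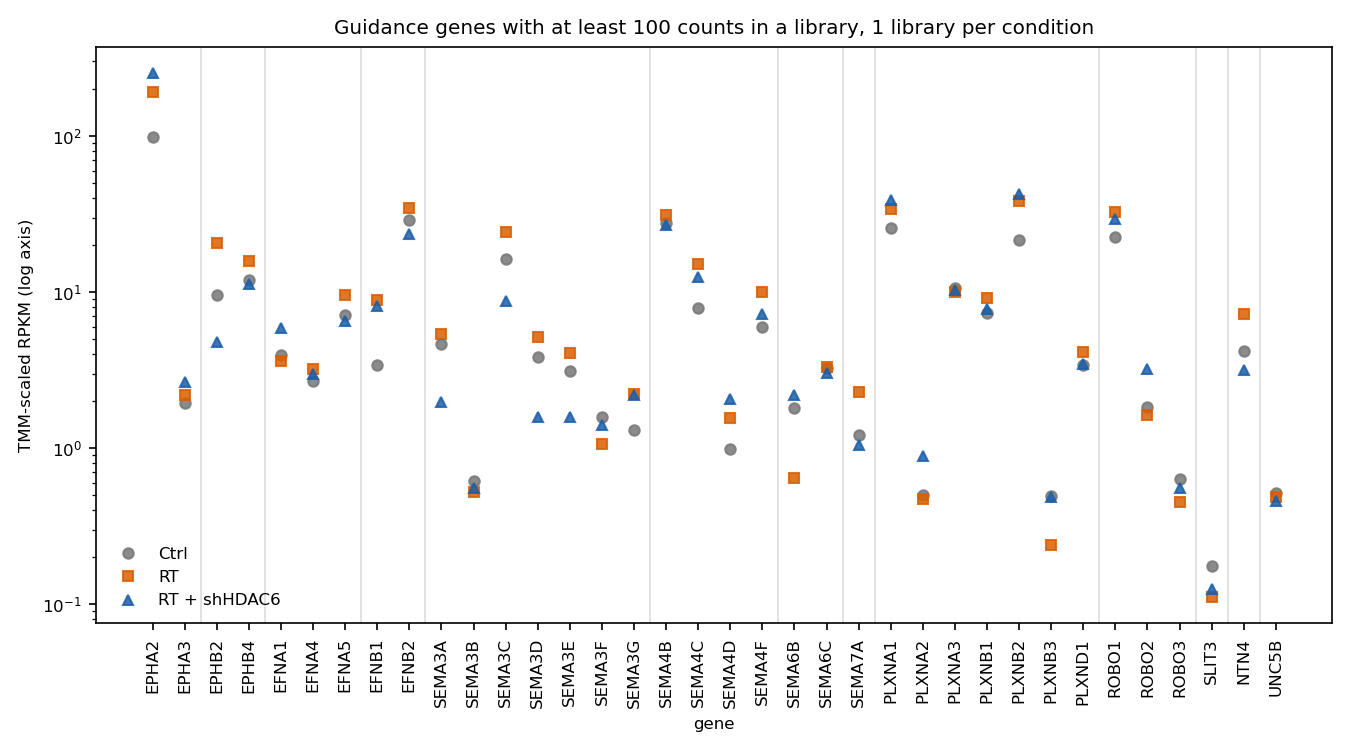
TMM-scaled RPKM on a log axis of the 36 members with at least 100 counts in a library, grouped by family, with 1 point per library (grey circles Ctrl, orange squares RT, blue triangles RT + shHDAC6). EPHA2 lies above all other members, and the blue triangles of EPHB2, SEMA3A, SEMA3C, SEMA3D and SEMA3E lie under both other points.

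The first comparison asked how guidance genes differed after irradiation. In RT against Ctrl the strongly expressed receptors EPHA2, EPHB2 and PLXNB2 and the ligand EFNB1 were higher, while SEMA6B, PLXNB3 and all 3 SLIT genes were lower. A member was called when it differed at least 1.5-fold and when the exact 95% interval of its log2 ratio, which covers counting error only, excluded 0. By this rule 11 of 52 members were called higher and 11 lower, against 14.3% of the 16302 genes tested called higher, 12.6% called lower and 26.9% called in either direction. With library totals in place of TMM scaling, 6 members were called higher and 15 lower, against 7.67% and 23.1% of all genes.

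Among the receptors, EPHA2 had 18508, 26734 and 36562 counts. Ctrl was thus the lowest and RT + shHDAC6 the highest of the 3 libraries. The log2 ratio of RT over Ctrl was 0.97 (counting interval 0.94 to 0.99), a 1.95-fold higher level. EPHB2, a receptor for ephrin-B ligands, had 5449, 8627 and 2101 counts, and its log2 ratio of RT over Ctrl was 1.10 (counting interval 1.05 to 1.15). It was the Eph receptor with the largest called rise in RT and also the one with the largest fall in RT + shHDAC6. PLXNB2, a receptor for class 4 semaphorins, had 7128, 9386 and 10748 counts, and its log2 ratio of RT over Ctrl was 0.83 (counting interval 0.79 to 0.88). PLXNB3 went the other way with 157, 56 and 119 counts, a log2 ratio of -1.05 (counting interval -1.52 to -0.60). On the same strand, SRPK3 covers 20.4% of the exon length of PLXNB3. The low receptor EPHB3 (57 counts in Ctrl, 22 in RT) was also called lower. EPHB4, PLXNA1, PLXNA3, PLXNB1, PLXND1 and ROBO1 had log2 ratios between -0.07 (PLXNA3) and 0.53 (ROBO1) and were not called. In counts, PLXNA1 had 13136, 12901 and 15297, PLXNA3 had 5608, 3955 and 4196, PLXNB1 had 3245, 2998 and 2674, and PLXND1 had 1481, 1322 and 1159. The lower receptors EPHA3 (578, 480 and 610 counts), ROBO3 (202, 105 and 135) and UNC5B (159, 112 and 110) were not called in any of the 3 comparisons.

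Among the ligands, EFNB1 had the largest log2 ratio of all called members. It had 511, 990 and 943 counts. Both irradiated libraries were therefore well above Ctrl, and the log2 ratio of RT over Ctrl was 1.39 (counting interval 1.23 to 1.55), higher than that of all but 1.24% of the genes tested. Its relative EFNB2 had 6578, 5835 and 4111 counts and a log2 ratio of 0.26 (counting interval 0.21 to 0.31), and was not called; 36.4% of its exon length lies opposite a gene on the other strand, and the strand setting of the counting is not stated. The GPI-anchored ligands EFNA1 (389, 264 and 443 counts), EFNA4 (153, 136 and 131) and EFNA5 (1843, 1850 and 1315) were not called in this comparison either, and 15% of the exon length of EFNA4 is shared with the readthrough gene EFNA4-EFNA3.

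Of the semaphorins, 6 were called higher in RT. SEMA4C had 2230, 3172 and 2726 counts, with RT over Ctrl at 0.94 on the log2 scale (counting interval 0.86 to 1.02). SEMA7A, the GPI-anchored semaphorin, had 208, 291 and 139 counts and a log2 ratio of 0.92 (counting interval 0.66 to 1.18) in the same comparison. Both were highest in RT, and SEMA7A was lowest in RT + shHDAC6. SEMA3G (log2 ratio 0.78), SEMA4F (0.75, at 1696, 2103 and 1586 counts), SEMA4D (0.66) and SEMA3C (0.59) were called higher as well, but each of these fell short of 1.5-fold with library totals, and SEMA3C reached only 1.504-fold with TMM. SEMA6B, a transmembrane semaphorin, showed the largest fall. It had 383, 101 and 359 counts, so that RT stood apart from both other libraries. The log2 ratio of RT over Ctrl was -1.49 (counting interval -1.82 to -1.17), and 0.865% of the genes tested had a lower one. The low-count semaphorins SEMA4A (51 and 16 counts in Ctrl and RT), SEMA4G (76 and 35), SEMA5A (92 and 45) and SEMA6D (83 and 35) were also called lower. SEMA4B (8811, 7341 and 6580 counts) and SEMA6C (854, 645 and 612) were not called in any comparison, and SEMA3F, at 345 and 171 counts, just missed the threshold with a log2 ratio of -0.58.

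The remaining ligands split in the same way by abundance. NTN4, a netrin of basement membranes, had 825, 1062 and 482 counts and was called higher in RT (log2 ratio 0.80, counting interval 0.67 to 0.93; 0.58 with library totals, which was not called). SLIT1 had 63 and 22 counts in Ctrl and RT, SLIT2 had 57 and 17, and SLIT3 had 114 and 53 (62 in RT + shHDAC6), with log2 ratios of -1.08, -1.31 and -0.67. NTN5 (50 and 20 counts) was called lower too. All 9 called members whose mean count lay between 20 and 100 were lower in RT, among 17 members in that range with a median log2 ratio of -0.67. Over all 4189 genes of that range the median was -0.32, and 25.3% were called lower and 8.64% higher. Of the 24 members with a mean of at least 500 counts, 22 had a log2 ratio above 0 (19 with library totals). The median over these 24 members was 0.42. Over all 8996 genes of that abundance the median was 0.11, and 59.7% had a log2 ratio above 0. Count level thus moved with direction in all genes as well as in the members, and its part in these results was not tested. Among the cell markers, KRT18 and CDH2 were called higher and KRT19, PECAM1 and CDH5 lower in RT, and the summed counts of the 3 endothelial markers were 1049 in Ctrl and 486 in RT; their part was not tested either.

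**Figure D2:**
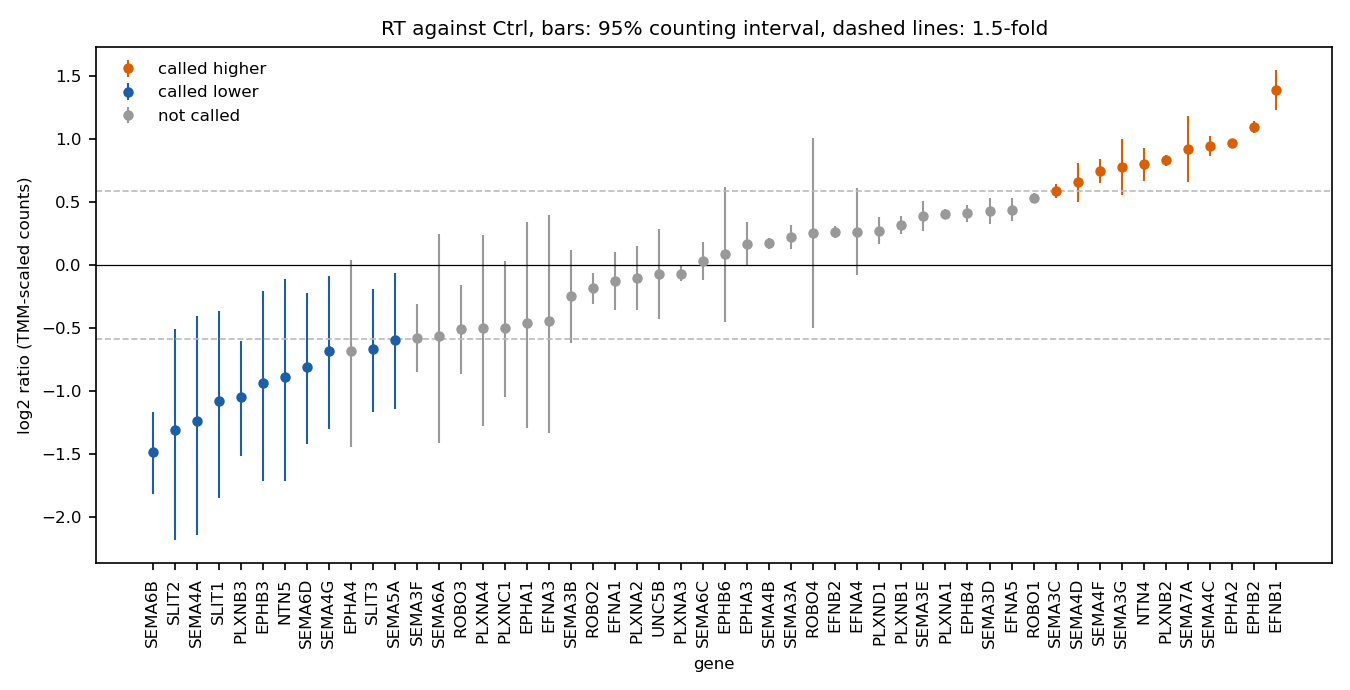
Log2 ratios of RT over Ctrl for the 52 members averaging at least 20 counts, in ascending order, with 95% counting intervals as bars and dashed lines at 1.5-fold. The 11 members called lower (blue) run from SEMA6B at -1.49 and mostly have wide intervals, and the 11 called higher (orange) end with EFNB1 at 1.39.

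The next comparison, RT + shHDAC6 against RT, asked how irradiated cells differed with and without the shRNA against HDAC6. HDAC6 in the library labelled RT + shHDAC6 was at 87.2% of RT (log2 ratio -0.20, counting interval -0.28 to -0.11) and was not called. The label is therefore used here as a name, and the values do not show the size of a knockdown. By qPCR and Western blot, the paper reports lower HDAC6 mRNA and protein in its shHDAC6 T24 cells than in control cells. No irradiation is named for those assays. It also reports, by Western blot at a dose under the 10 Gy of these libraries, that the knockdown removed the rise of HDAC6 protein after irradiation. Lower levels were found for EPHB2, NTN4, SEMA7A and the 4 secreted class 3 semaphorins on chromosome 7, SEMA3A, SEMA3C, SEMA3D and SEMA3E, and higher levels for SEMA6B, PLXNB3 and the SLIT receptor ROBO2. In all, 9 of 52 members were called lower and 5 higher, against 6.47% of all genes tested called lower, 4.63% called higher and 11.1% called in either direction. With library totals 9 members were called lower and 6 higher, against 5.26% and 6.21% of all genes. The median log2 ratio over the 52 members was -0.05, and over all genes tested it was -0.01. The RT library also enters the comparison with Ctrl, so the values of both comparisons are given side by side and are not independent.

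SEMA3C, which binds neuropilins with several plexins, had 4487, 4992 and 1875 counts. SEMA3A, the prototype repellent cue, had 1947, 1677 and 638 counts. SEMA3D had 1440, 1434 and 455 counts, and SEMA3E, which binds PLXND1 without a neuropilin, had 1188, 1150 and 465 counts. In each of these genes RT + shHDAC6 was clearly the lowest library. Ctrl and RT lay close together in unscaled counts only. After scaling, log2 ratios of RT over Ctrl ran from 0.22 (SEMA3A) to 0.59 (SEMA3C, called higher). For RT + shHDAC6 over RT the log2 ratio was -1.72 (counting interval -1.87 to -1.565) for SEMA3D, -1.47 (counting interval -1.55 to -1.40) for SEMA3C, -1.46 (counting interval -1.59 to -1.32) for SEMA3A and -1.37 (counting interval -1.53 to -1.21) for SEMA3E. These are falls of 3.29-fold, 2.78-fold, 2.74-fold and 2.58-fold, and between 1.01% and 1.73% of the genes tested had a lower ratio. Summed over the 4 genes, the level fell 2.81-fold, from 39.0 to 13.9 RPKM.

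The other 3 class 3 semaphorins, SEMA3B, SEMA3F and SEMA3G, lie on chromosome 3 and were not called. SEMA3B had 162, 101 and 112 counts, SEMA3F had 345, 171 and 236, and SEMA3G had 298, 378 and 387. Their summed counts had a log2 ratio of 0.12 (counting interval -0.039 to 0.27), and those of the chromosome 7 genes one of -1.49 (counting interval -1.55 to -1.44). The split by chromosome also separates the called from the uncalled genes. A gap between the sums therefore follows from the calls and adds no support to them. The chromosome 7 genes made up 91.1% of the summed RPKM of class 3 semaphorins in RT and 77.0% in RT + shHDAC6.

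To show the letters in front of genes that moved together, the 250 bases before the transcription start are printed for SEMA3C, SEMA3D and SEMA3E and for EPHB2, which fell most, from RefSeq on GRCh38.p14, 5′ to 3′ on the gene's strand. Windows were found for 57 of the 66 members, and SEMA3A was not among them, so it could not be printed. Where several starts were listed, the one at the start of the Ensembl canonical transcript was taken. Capitals mark matches on either strand to TATAAA (a core promoter element, in 10.7% of 35116 windows of the same length), CCAAT (32.0%), GGGCGG (GC box, 42.6%), TGANTCA (AP-1 site, 6.57%) and CACGTG (E-box, 6.34%), and no marked matches overlap. The windows are chr7:80919052-80919301 on the minus strand for SEMA3C, chr7:85187057-85187306 on the minus strand for SEMA3D, chr7:83649140-83649389 on the minus strand for SEMA3E and chr1:22710589-22710838 on the plus strand for EPHB2.
SEMA3C: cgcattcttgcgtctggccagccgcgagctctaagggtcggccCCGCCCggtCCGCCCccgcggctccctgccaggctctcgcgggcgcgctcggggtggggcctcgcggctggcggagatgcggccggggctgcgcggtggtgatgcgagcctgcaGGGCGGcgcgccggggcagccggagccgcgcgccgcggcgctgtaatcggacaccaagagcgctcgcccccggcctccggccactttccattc
SEMA3D: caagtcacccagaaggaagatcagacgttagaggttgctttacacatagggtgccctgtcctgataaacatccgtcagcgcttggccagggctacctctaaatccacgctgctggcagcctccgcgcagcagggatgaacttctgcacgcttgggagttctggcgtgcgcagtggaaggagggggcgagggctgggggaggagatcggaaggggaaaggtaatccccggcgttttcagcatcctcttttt
SEMA3E: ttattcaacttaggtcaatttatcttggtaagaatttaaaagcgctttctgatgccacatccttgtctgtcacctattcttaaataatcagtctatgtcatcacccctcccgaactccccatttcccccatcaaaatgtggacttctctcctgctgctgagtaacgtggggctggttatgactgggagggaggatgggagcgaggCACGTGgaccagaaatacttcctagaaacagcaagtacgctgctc
EPHB2: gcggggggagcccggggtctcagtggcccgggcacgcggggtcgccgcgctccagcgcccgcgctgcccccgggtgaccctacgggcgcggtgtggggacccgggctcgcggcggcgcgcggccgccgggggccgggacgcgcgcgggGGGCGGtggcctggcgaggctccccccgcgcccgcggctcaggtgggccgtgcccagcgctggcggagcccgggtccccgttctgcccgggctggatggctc
The windows differed in composition. SEMA3C and EPHB2 had 77.6% and 84.8% G or C with 39 and 41 CpG pairs, SEMA3D had 57.6% and 13 pairs, and SEMA3E had 46.4% and 6 pairs, against a median of 58.0% G or C over all windows. GC box letters occurred 3 times before SEMA3C and 1 time before EPHB2, E-box letters 1 time before SEMA3E, and none of the motifs before SEMA3D, so no motif searched was shared by the 3 semaphorin windows.

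The chromosome 7 semaphorins lie within 4.445 Mb, from position 80742538 (in SEMA3C) to 85187056 (in SEMA3D) on GRCh38, and all are on the minus strand. Another 4 genes with a mean of at least 20 counts lie between them, and these did not share one direction. HGF, which encodes hepatocyte growth factor, had 130, 42 and 93 counts, and its log2 ratio was 1.085 (counting interval 0.54 to 1.65). PCLO had 1219, 591 and 385 counts and a log2 ratio of -0.68 (counting interval -0.87 to -0.49). CACNA2D1 (log2 ratio 0.42) and the pseudogene HNRNPA1P8 (-0.38) were not called. Within 3 Mb on either side, 17 further genes had a median log2 ratio of -0.22; ABCB1 at -3.06, PHTF2 and ADAM22 were called lower and TMEM243 and TP53TG1 higher. These neighbours and the width of the flanks were chosen after the semaphorin values were seen.

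**Figure D3:**
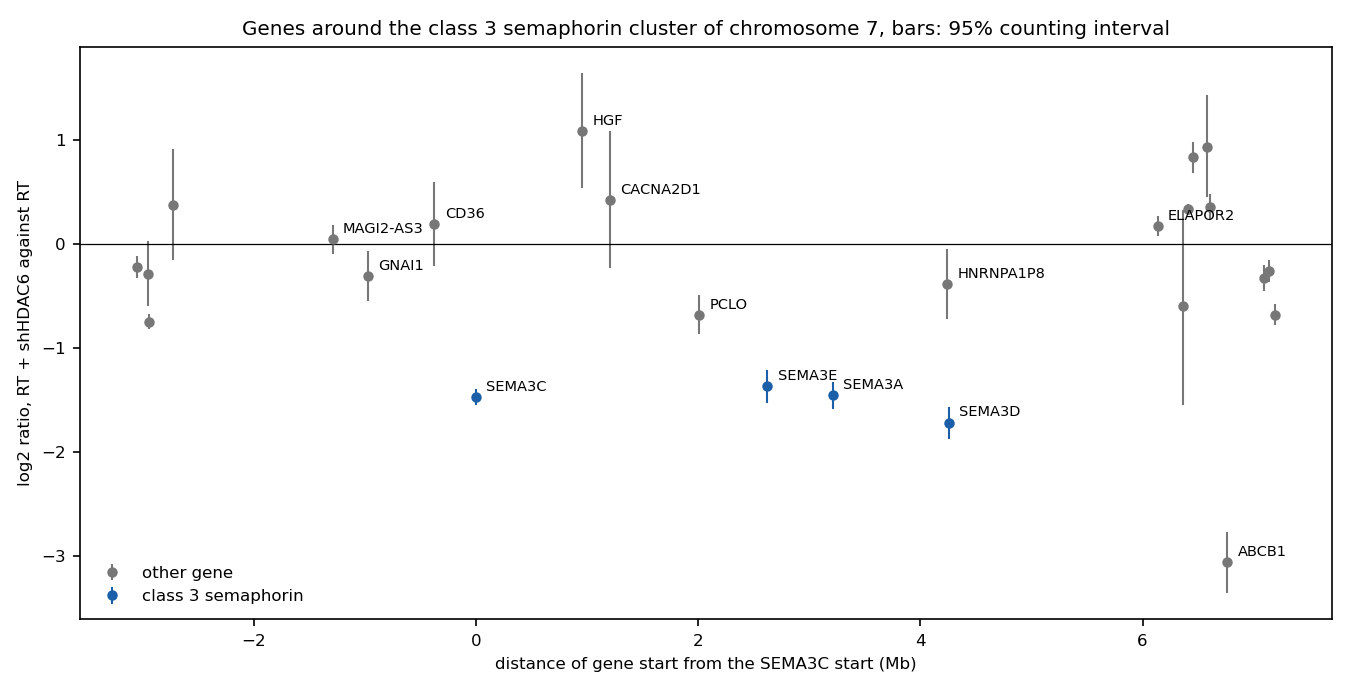
Log2 ratio of RT + shHDAC6 over RT for genes with a mean of at least 20 counts around the chromosome 7 semaphorins. Bars are 95% counting intervals. The horizontal axis gives the distance in Mb of the gene's start from that of SEMA3C. Start here means the lowest genomic position, which for minus-strand genes is not the transcription start. The 4 semaphorins (blue) lie between -1.72 and -1.37, while the 4 genes between them (grey) range from -0.68 to 1.085 and ABCB1 lies at -3.06.

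EPHB2 (chromosome 1) had the lowest log2 ratio of the 52 members tested, -2.10 (counting interval -2.17 to -2.03), a 4.29-fold fall from 8627 to 2101 counts, and 0.509% of the genes tested had a lower one. Its share of the summed RPKM of EphB receptors was 43.4%, 55.7% and 29.3%, highest in RT. EPHB4, the receptor that pairs with EFNB2, had 3470, 3415 and 2520 counts, and its log2 ratio of -0.50 (counting interval -0.58 to -0.43) was not called. Per length, EPHB4 was the more abundant of the pair in Ctrl (11.9 against 9.60 RPKM) and in RT + shHDAC6 (11.2 against 4.79 RPKM), and EPHB2 in RT (20.6 against 15.8 RPKM). EPHB6, which lacks kinase activity, had 70, 55 and 23 counts and was called lower (log2 ratio -1.32, counting interval -2.09 to -0.59). EPHA2 did not share the lower level: its log2 ratio was 0.39 (counting interval 0.37 to 0.41), above 0 under all scalings tried but under 1.5-fold.

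Of the ephrins only EFNA1 was called. This GPI-anchored ligand, one of the main partners of EPHA2, went from 264 to 443 counts and was higher (log2 ratio 0.68, counting interval 0.46 to 0.91). EFNB2 and EFNA5 had log2 ratios of -0.57 (counting interval -0.63 to -0.51) and -0.55 (counting interval -0.66 to -0.45), just short of 1.5-fold. EFNB1 had a log2 ratio of -0.13 (counting interval -0.26 to -0.0021) and was not called.

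Among the other ligands, NTN4 fell 2.30-fold and SEMA7A 2.19-fold, with log2 ratios of -1.20 (counting interval -1.36 to -1.05) and -1.13 (counting interval -1.43 to -0.83). SEMA6B rose most of the 52 members tested, from 101 to 359 counts, with a log2 ratio of 1.77 (counting interval 1.45 to 2.10), and 0.264% of the genes tested had a higher one. SEMA4G, at 35 counts in RT, had 10 left in RT + shHDAC6 (log2 ratio -1.87, counting interval -3.05 to -0.82), and 28% of its exon length lies opposite other genes, MRPL43 among them. No SLIT gene was called, at 15 to 62 counts in these libraries.

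Of the remaining receptors, ROBO2 had 1394, 907 and 1885 counts, 1.99-fold more after scaling in RT + shHDAC6 than in RT (log2 ratio 0.99, counting interval 0.88 to 1.11). Its relative ROBO1 had 11289, 12071 and 11320 counts and a log2 ratio of -0.15 (counting interval -0.19 to -0.12). The semaphorin receptors PLXNA2 (316, 218 and 429 counts, log2 ratio 0.91) and PLXNB3 (56 to 119 counts, log2 ratio 1.03) were called higher. The most abundant plexins had small log2 ratios, 0.18 for PLXNA1, 0.13 for PLXNB2 and 0.02 for PLXNA3, and PLXND1, the receptor of SEMA3E, had one of -0.25 (counting interval -0.37 to -0.14).

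Cell identity markers moved in the same comparison. Between RT and RT + shHDAC6, GATA3 went from 1423 to 709 counts, PPARG from 650 to 352, KRT7 from 3854 to 597, and CDH2, the gene of N-cadherin, from 8613 to 4379, and all of these were called lower. KRT7 was the only one of the 6 epithelial markers to fall: KRT8, KRT18, KRT19, EPCAM and CDH1 had log2 ratios between 0.05 (KRT18) and 0.51 (EPCAM), none called, and the list's median was 0.29. The summed counts were 13884 and 11866 for the epithelial markers, a drop that came from KRT7, and 2079 and 1067 for the 6 urothelial markers. For the 3 mesenchymal markers they were 88045 and 105997. That rise came mainly from VIM, at 74147 and 95822 counts, while FN1 had 5285 and 5796 and CDH2 fell. No marker on the endothelial, haematopoietic or neural and glial lists was called in this comparison. Their part in the guidance gene results was not tested.

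**Figure D4:**
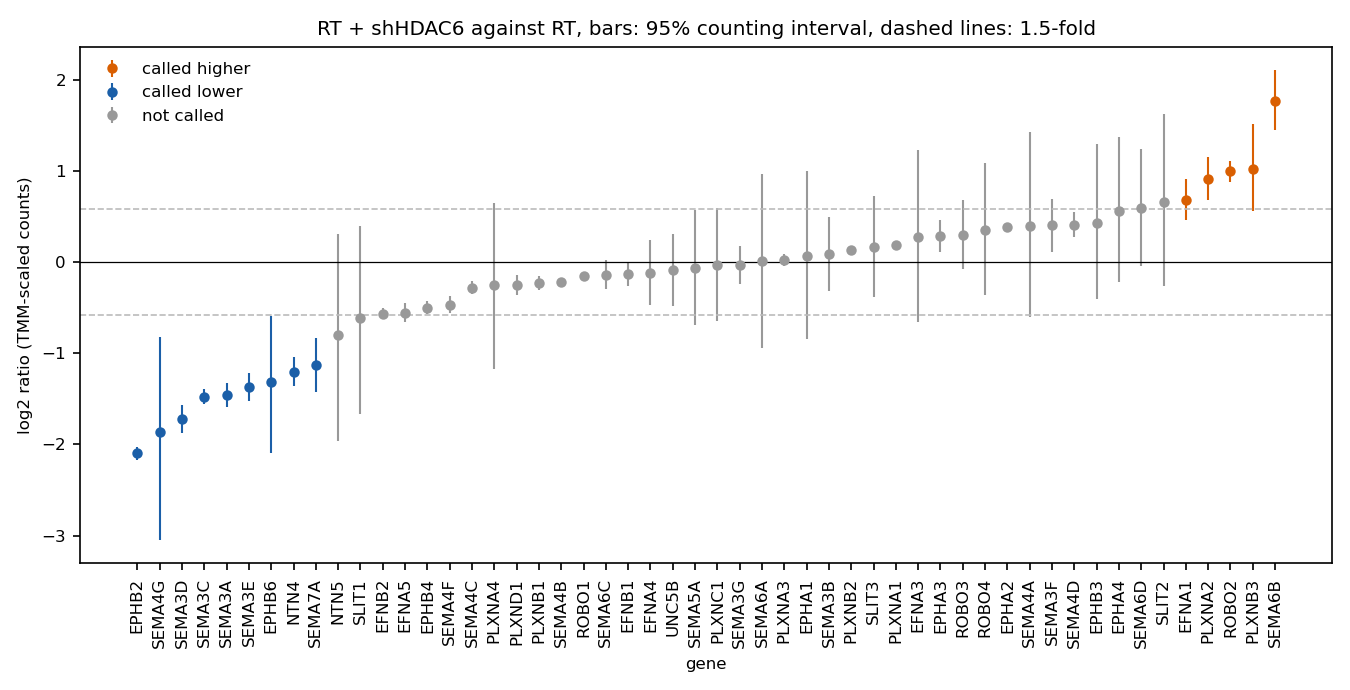
Log2 ratios of RT + shHDAC6 over RT for the 52 members averaging at least 20 counts, in ascending order, with 95% counting intervals as bars and dashed lines at 1.5-fold. EPHB2 at -2.10 and the chromosome 7 semaphorins are at the low end with narrow intervals, and SEMA6B at 1.77 is at the high end.

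The last comparison set RT + shHDAC6 against Ctrl, which by their labels differ in irradiation and in the shRNA, with HDAC6 at 90.7% of Ctrl in the library labelled RT + shHDAC6. Here 9 members were called higher and 11 lower, against 12.8% and 13.4% of all genes tested, or 26.2% in either direction. With library totals these were 7 and 15 members, against 8.61% and 18.7%. EPHA2 was 2.56-fold higher (log2 ratio 1.36, counting interval 1.33 to 1.38) and EFNB1 2.39-fold higher. PLXNB2 (log2 ratio 0.97), SEMA4D (1.07), SEMA3G (0.75), SEMA4C (0.66), PLXNA1 (0.59), PLXNA2 and ROBO2 (both 0.81) were the other members called higher. Of these, PLXNA1 and SEMA4C were not called with library totals. SEMA4D, which binds PLXNB1 and PLXNB2, had 631, 736 and 1022 counts.

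All 4 chromosome 7 semaphorins were called lower than in Ctrl, with log2 ratios of -1.29 for SEMA3D, -1.24 for SEMA3A, -0.98 for SEMA3E and -0.89 for SEMA3C. EPHB2 lay 2.00-fold under Ctrl, with a log2 ratio of -1.002 (counting interval -1.08 to -0.93). SEMA6B, PLXNB3, NTN4 and SEMA7A, which were called in opposite directions in the other comparisons, were not called against Ctrl. Their log2 ratios were 0.28, -0.03, -0.40 and -0.21. A gene's log2 ratio against Ctrl is the sum of its ratios in the other comparisons, so these values add no separate result. The other members called lower, EPHB6, NTN5, SEMA4A, SEMA4G, SEMA5A and SLIT1, had at most 92 counts in any library.

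Summed by family, the EphA receptors had 101, 195 and 255 RPKM, nearly all of it EPHA2. The EphB receptors had 22.1, 36.9 and 16.4 RPKM, so their sum was highest in RT and lowest in RT + shHDAC6. The plexins summed to 70.0, 97.0 and 104 RPKM and the ROBO receptors to 25.1, 34.8 and 33.2 RPKM, higher in both irradiated libraries, also with library totals. ROBO1 made up at least 88% of the ROBO sum in each library. In RT against Ctrl, ROBO2 and ROBO3 had log2 ratios of -0.18 and -0.51, and the low ROBO4 had one of 0.25. The class 6 semaphorins summed to 5.35, 4.15 and 5.44 RPKM. The netrins summed to 4.64, 7.57 and 3.46 RPKM, of which NTN4 made up at least 89.9% in each library.

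**Figure D5:**
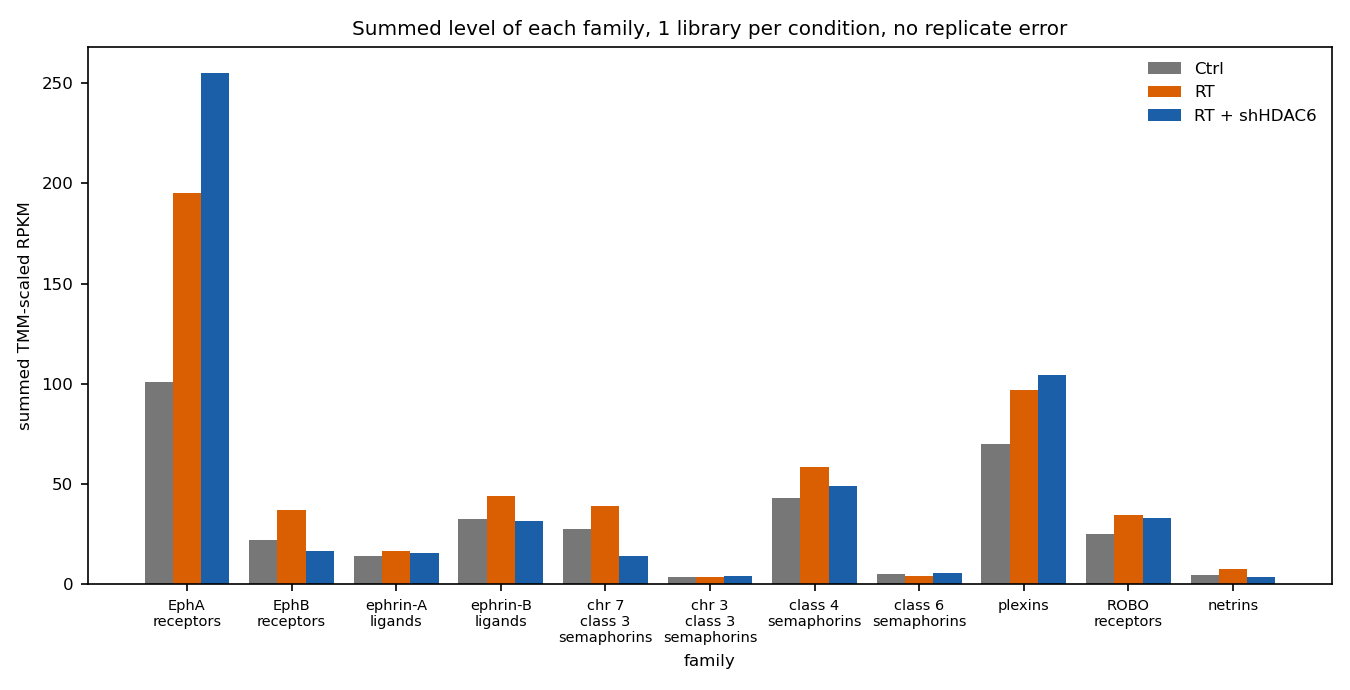
Summed TMM-scaled RPKM of each family in the 3 libraries (bars from 0, grey Ctrl, orange RT, blue RT + shHDAC6), without error bars because each condition had 1 library. The EphA bars step up from 101 to 255, while the EphB bars and those of the chromosome 7 class 3 semaphorins are lowest in RT + shHDAC6.

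Other genes of these pathways were taken from lists of 15 coreceptors and further ligands and of 35 signalling partners. Of the 8 coreceptors and ligands with a mean of at least 20 counts, 1 was called higher and 0 lower in RT against Ctrl. The shares of all genes tested were 14.3% and 12.6%. In RT + shHDAC6 against RT, 1 was called lower and 0 higher, against 6.47% and 4.63% of all genes. In both cases this was RGMB, a ligand of neogenin, with 7181, 8210 and 5615 counts and log2 ratios of 0.63 (counting interval 0.58 to 0.67) and -0.61 (counting interval -0.66 to -0.56), both of which fell short of 1.5-fold with library totals. The neuropilin NRP1 had 521, 374 and 381 counts and NRP2 had 142, 76 and 74; neither was called in any of the 3 comparisons. DCC had at most 4 counts, and neogenin (NEO1) had 298, 278 and 295. In RT + shHDAC6 against Ctrl, 0 were called higher and 1 lower, against 12.8% and 13.4% of all genes. The lower gene was RGMA, at 34, 13 and 13 counts.

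Of 31 signalling partners with enough counts, 7 were called lower and 0 higher in RT against Ctrl, where 12.6% and 14.3% of all genes tested were. Among these were ENAH, an actin regulator downstream of ROBO receptors (5086, 2142 and 2138 counts), the ephrin-B adaptor SDCBP (5901, 2638 and 3683), DPYSL3 of the collapsin response mediator family (485, 229 and 210) and VAV3, an exchange factor used by Eph receptors (215, 103 and 134). In RT + shHDAC6 against RT, 3 were called higher and 1 lower, against 4.63% and 6.47% of all genes. The kinase FYN was the gene that was lower, with 786, 381 and 254 counts, and the adaptor NCK1 was higher, with 1276, 730 and 1185 counts. FYN was also 1 of the 7 partners called lower in RT against Ctrl. Its log2 ratio was -0.61 there and -0.65 in RT + shHDAC6 against RT, where it fell short of 1.5-fold with library totals. The median log2 ratio of the partners was -0.12 in the irradiation comparison and 0.05 in that of RT + shHDAC6 with RT, where all genes tested had medians of 0.0048 and -0.01.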

How the data were processed

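RNA of T24 cells was sequenced from 1 library per condition. Per the labels and the study's methods, the authors used cutadapt for trimming, STAR for alignment to GRCh38 (2.6.1a in the submitters' processing notes, while the paper names another version) and featureCounts for counting on GENCODE release 28 genes. The deposited values are whole read counts per gene without normalisation, for 58381 genes. The strand setting and the treatment of reads matching several genes were not given in the sources used here, so near-identical or overlapping genes could share counts.

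Symbols, positions and exon lengths came from GENCODE release 44 by gene identifier (57754 matched). Counts were scaled by TMM (edgeR 4.0.16, R 4.3.3), as in the study. Log2 ratios had exact Clopper-Pearson 95% intervals (scipy 1.17.1), with a count of 0 set to 0.5, and the code was tested on simulated data. No molecular identifiers are described, so several reads may stem from 1 molecule, and intervals and floors reflect counting error alone.

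The study called genes with NOISeq, which simulates its noise when there are no replicates; a rule of 1.5-fold with an interval excluding 0 was used instead, over the 16302 genes with a mean of at least 20 counts. Counts, log2 ratios and intervals were given for members with at least 100 counts in a library that were called or most abundant, and briefly for the rest. The members and gene lists were chosen with earlier results of these data known. Alternatives covered scaling (library totals, DESeq2 1.42.0 size factors, upper quartile), the count filter, the fold, the interval and the replacement of zeros.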

Additional observations from a re-analysis of the deposited data

How the results depend on the processing

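Most counts of called members stayed within 1.5 times of those reported under the 8 alternatives. The exceptions were as follows. With library totals, 6 and not 11 members were called higher in RT than in Ctrl, since that scaling lowers all log2 ratios of this comparison by 0.22 (the shift was -0.13 for RT + shHDAC6 against Ctrl and 0.084 against RT). A mean of at least 100 counts left 35 members, of which 2 were called lower in RT and 5 lower in RT + shHDAC6 than in Ctrl, against 8.16% and 10.2% of all genes so filtered. At 2-fold, 2 members were called higher and 5 lower in RT than in Ctrl (4.29% and 4.09% of all genes), 2 higher and 9 lower in RT + shHDAC6 against RT (1.88% and 3.1%), and 3 higher and 7 lower against Ctrl (3.99% and 6.02%); fewer genes pass a stricter fold by construction. For named members, 64, 64 and 60 log2 ratios were recomputed in the 3 comparisons, with the other scalings and with zeros set to 1 count. No named member had a count of 0. The 16, 16 and 15 values with replaced zeros were therefore unchanged by construction. Of the values under the other scalings, 21, 7 and 14 fell outside the counting interval of the main setting, in the same direction. That 0 called values changed sign was fixed in advance. A called log2 ratio is at least 0.585 in size, and the scalings shift all ratios of a comparison by at most 0.22. No paired analysis was possible because each condition had 1 library, and for the same reason no replicate could be left out. Depth limits the 30 members with under 100 counts in every library: for SLIT2, at 17 counts in RT, the interval against Ctrl ran from -2.19 to -0.51.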

Other observations

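MICAL2, an actin-oxidising enzyme of the family that acts behind plexins, was singled out after its values were seen. It had 29846, 25841 and 32142 counts (order as above) and was not called in any comparison.

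Of 31 signalling partners tested, 3 were called higher and 3 lower in RT + shHDAC6 against Ctrl, against 12.8% and 13.4% of all genes. Called higher were ABL2 (log2 ratio 0.72), SRGAP1 (0.75), a GTPase-activating partner of ROBO receptors, and RND1, a GTPase that binds plexins. RND1 had only 56, 38 and 69 counts (log2 ratio 0.67, counting interval 0.14 to 1.21). With library totals, ABL2 and RND1 fell short of 1.5-fold. FYN (log2 ratio -1.26), DPYSL3 (-0.83) and ENAH (-0.88) were called lower.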
